A study of Mus musculus with 16 samples.

Results

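The genes described here are 9 genes of myelin and of mature oligodendrocytes, Mbp, Mobp, Mal, Cnp, Mag, Mog, Cldn11, Opalin and Ugt8a, taken by gene name from the 39179 gene rows of every library. All 9 were found and all 9 passed the filter on low counts that left 18074 genes for testing. The mice were adult, carried the label TERT-AD and the strain B6.129S6.SvEvTac, and had received tamoxifen or vehicle before RNA was taken from neurons of cortex and of hippocampus. The 4 groups were cortical tamoxifen, cortical control, hippocampal tamoxifen and hippocampal control, all of them TERT-AD, with 4 libraries each. The question was how gene expression differs once Tert, the catalytic subunit of telomerase, is activated by tamoxifen. The sources used here give neither the animals' exact age, nor the tamoxifen dose, nor the driver of the tamoxifen response, nor the way neurons were isolated.

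Oligodendrocytes wrap axons in myelin, a stack of membrane layers held together on their inner side by myelin basic protein (Mbp) and on their outer side by tetraspan proteins. The messages for Mbp and for the related basic protein Mobp are known to be carried along the cell's processes and translated next to the myelin sheath, whereas membrane proteins such as Mag and Mog are made on the endoplasmic reticulum of the cell body. Neurons do not make myelin, and these genes are commonly used as markers of oligodendrocytes, here in samples labelled as neurons.

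Neighbouring libraries of a group differed far less than its other libraries, so libraries 1 and 2 were added to give sample A and libraries 3 and 4 to give sample B. This left 8 samples, 2 per group, with 83527470 to 108293362 counts in genes. For the 9 genes, the neighbouring libraries lay 0.134 to 16.8% apart in 72 comparisons, with a median gap of 2.13%. The labels do not say that libraries came from separate animals, so a p-value here covers the spread of these samples alone, and that spread may be technical. Cortical tamoxifen sample B stood apart from the other 7: the summed level of 17 neuron markers was 10664 CPM in it and 5701 to 8009 CPM elsewhere, and mitochondrial genes took 20.4% of its gene counts against 24.0 to 31.5% elsewhere. CPM are gene counts scaled to a common total of 1000000 per sample. Tert itself was low, at 0.473 to 3.89 CPM over the 8 samples, and did not pass the threshold in cortex (edgeR adjusted p = 0.834) or hippocampus (edgeR adjusted p = 1). Its mean was 1.69 ± 0.915 CPM in cortical tamoxifen samples and 0.792 ± 0.451 CPM in cortical controls (SD, n = 2 each). In hippocampus its mean was lower with tamoxifen, at 1.60 ± 0.795 CPM against 2.68 ± 1.71 CPM in controls (SD, n = 2 each).

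Per unit of transcript length, the 9 genes covered a wide range of levels with a nearly fixed order. By the deposited RPKM (read counts scaled by exon length and library total), Mbp was first in all 8 samples, with a lowest value of 1223, a median of 2516 and a highest value of 3758. Mobp came next in all 8, with 580, 1304 and 2068 RPKM. Cnp, an enzyme of the cytoplasmic channels of myelin, had 33.9, 48.6 and 63.9 RPKM. Mal, a tetraspan protein of myelin and of apical membrane sorting, had 34.1, 45.7 and 55.7 RPKM, so that Cnp and Mal changed places between samples and do not differ beyond their spread. Mag, the adhesion protein of the membrane facing the axon, held rank 5 in every sample, with 14.1, 25.3 and 37.2 RPKM. Cldn11, the claudin that seals the layers of the sheath, held rank 6 in every sample, with 10.7, 22.4 and 32.8 RPKM. Mog, the glycoprotein of the outermost myelin surface, and Ugt8a, the enzyme that makes galactosylceramide, changed places between ranks 7 and 8, with medians of 10.3 and 8.16 RPKM. Opalin, a transmembrane protein of mature oligodendrocytes, was last in all 8 samples, with 2.28, 4.56 and 6.66 RPKM. Mbp ranked 13 to 15 among all genes by RPKM and Mobp 16 to 30, counted within each sample, while Opalin ranked 3296 to 5805.

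The genes together took 2.31% of all gene counts in cortical tamoxifen sample B, 6.58% in cortical tamoxifen sample A, 5.17 and 5.14% in cortical controls A and B, 4.45 and 6.25% in hippocampal tamoxifen samples A and B and 4.47 and 7.06% in hippocampal controls A and B. Mbp and Mobp made up 97.1 to 99.0% of these counts. A summed level of the 9 genes is therefore in practice the level of Mbp and Mobp, and the other 7 genes have to be read one by one. The 9 genes lie on 8 chromosomes, with Cldn11 and Ugt8a far apart and on opposite strands of chromosome 3.

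Mbp (ENSMUSG00000041607, chr18:82475146-82585637, plus strand, mm10 as in the deposited files) had 46489 and 16449 CPM in cortical tamoxifen samples A and B, 36681 and 36052 CPM in cortical controls A and B, 31420 and 43383 CPM in hippocampal tamoxifen samples A and B, and 31962 and 48947 CPM in hippocampal controls A and B. The 2 cortical tamoxifen samples thus lay on either side of the cortical controls, which almost coincided, and the hippocampal groups overlapped. Mobp (ENSMUSG00000032517, chr9:120149742-120181484, plus strand) had 18615 and 6008 CPM in cortical tamoxifen samples A and B, 14303 and 14803 CPM in cortical controls, 12287 and 18338 CPM in hippocampal tamoxifen samples and 11783 and 20783 CPM in hippocampal controls. Sample by sample it followed Mbp, with the lowest value in cortical tamoxifen sample B and the highest in hippocampal control sample B. The ratio of Mbp to Mobp in RPKM stayed between 1.82 and 2.11 in the 8 samples, a 1.16-fold range, while each gene alone ranged 2.98-fold and 3.46-fold in CPM.

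Mag (ENSMUSG00000036634, chr7:30899183-30914327, minus strand) had 57.3 and 100.3 CPM in cortical tamoxifen samples A and B, 86.3 and 62.6 CPM in cortical controls, 99.8 and 97.8 CPM in hippocampal tamoxifen samples and 141.8 and 114.1 CPM in hippocampal controls. Here cortical tamoxifen sample B was the higher of its group and sample A the lowest of all 8, the reverse of Mbp. Cldn11 (ENSMUSG00000037625, chr3:31149946-31164324, plus strand) had 33.3 and 68.0 CPM in cortical tamoxifen samples A and B, 55.3 and 41.9 CPM in cortical controls, 64.5 and 69.3 CPM in hippocampal tamoxifen samples and 95.9 and 77.5 CPM in hippocampal controls. Mog (ENSMUSG00000076439, chr17:37010746-37023398, minus strand) had 19.5 and 30.9 CPM in cortical tamoxifen samples A and B, 27.7 and 18.4 CPM in cortical controls, 28.3 and 28.1 CPM in hippocampal tamoxifen samples and 39.8 and 28.7 CPM in hippocampal controls. Both genes followed Mag: hippocampal control sample A was the highest for each, and cortical tamoxifen sample A and cortical control sample B were the 2 lowest. Opalin (ENSMUSG00000050121, chr19:41062474-41077113, minus strand) had 11.1 and 13.4 CPM in cortical tamoxifen samples A and B, 15.8 and 7.27 CPM in cortical controls, 13.7 and 12.8 CPM in hippocampal tamoxifen samples and 19.4 and 12.9 CPM in hippocampal controls. Its highest and lowest samples were those of Mog, but its counts were the fewest, 615 to 2027 per sample.

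Cnp (ENSMUSG00000006782, chr11:100574904-100591729, plus strand) had 269.0 and 259.6 CPM in cortical tamoxifen samples A and B, 284.6 and 213.7 CPM in cortical controls, 314.6 and 303.3 CPM in hippocampal tamoxifen samples and 368.5 and 303.9 CPM in hippocampal controls. Its exons overlap those of Dnajc7 on the opposite strand, and the strand setting of the counting is not given, so reads of the 2 genes may not be told apart, although Dnajc7 received only 35966 counts over all libraries. Mal (ENSMUSG00000027375, chr2:127633226-127656695, minus strand) had 212.9 and 165.6 CPM in cortical tamoxifen samples A and B, 197.8 and 164.3 CPM in cortical controls, 207.0 and 206.2 CPM in hippocampal tamoxifen samples and 228.9 and 239.8 CPM in hippocampal controls. Ugt8a (ENSMUSG00000032854, chr3:125865359-125938550, minus strand) had 49.6 and 33.0 CPM in cortical tamoxifen samples A and B, 47.3 and 44.4 CPM in cortical controls, 47.5 and 54.9 CPM in hippocampal tamoxifen samples and 57.7 and 67.7 CPM in hippocampal controls. Cortical tamoxifen sample B was low for Ugt8a, as it was for Mbp. On CPM, Mal and Cnp had the narrowest ranges of the 9 over the 8 samples, 1.46-fold and 1.72-fold, whereas on TMM-scaled CPM, explained with the comparisons, the narrowest were Cnp (1.44-fold) and Mog (1.59-fold).

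**Figure D1:**
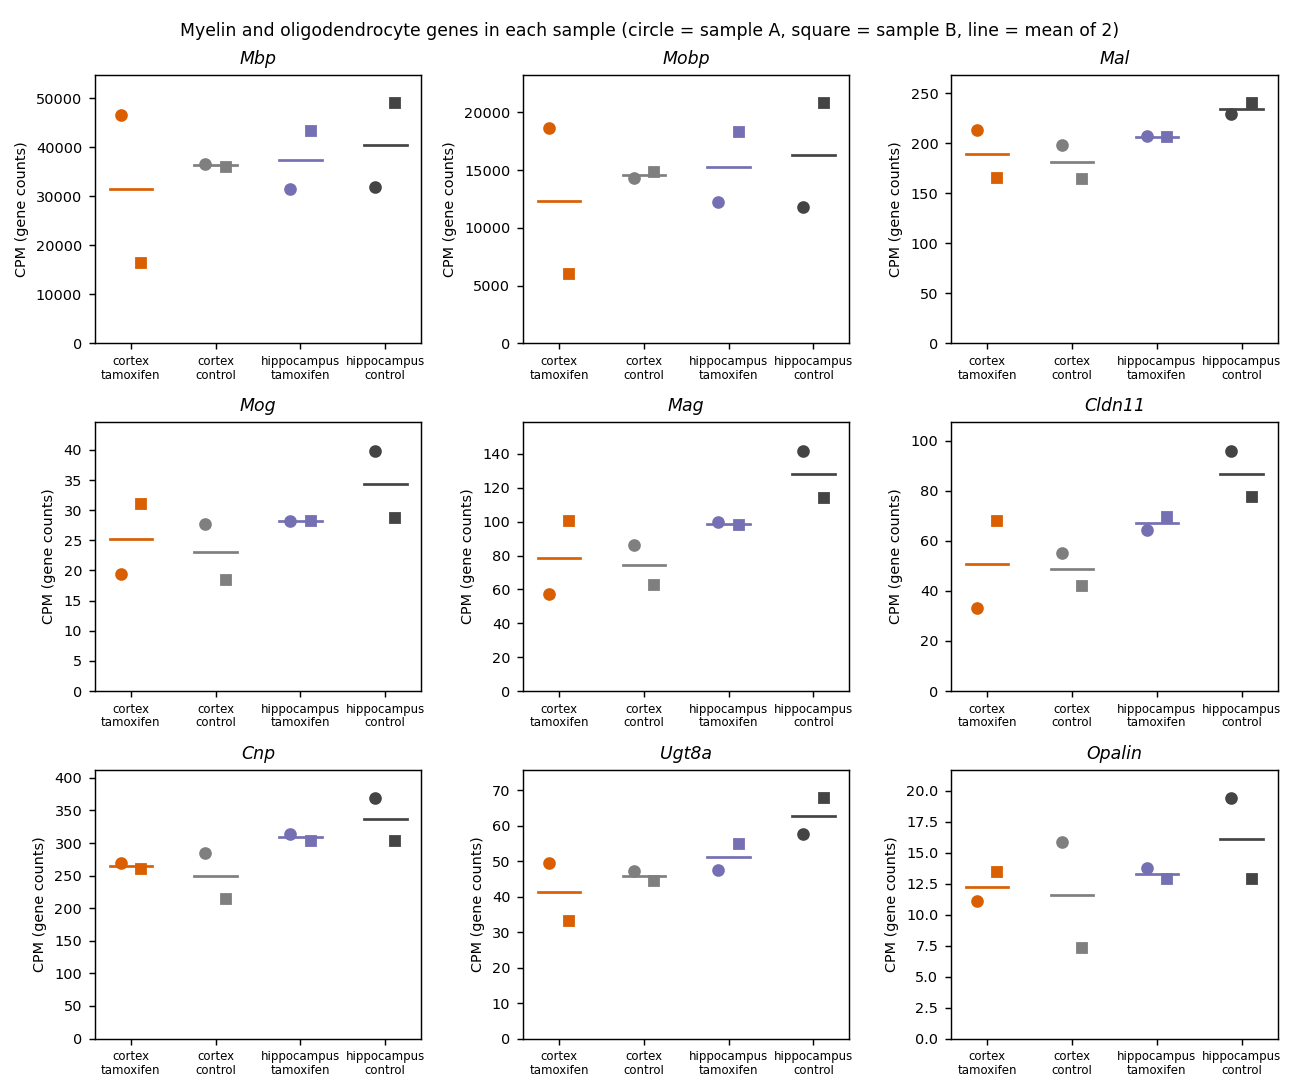
CPM (gene counts scaled to a common library total, axes from 0) of the 9 genes in each of the 8 samples, tamoxifen left of control in each region; circles are samples A, squares samples B and lines the mean of 2 samples. In the cortical tamoxifen group sample A is the higher for Mbp (46489 against 16449 CPM) and sample B the higher for Mag (100.3 against 57.3 CPM).

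Over the 8 samples 2 patterns stood out, 1 of Mbp and Mobp and 1 of Mag, Cldn11 and Mog, with the other genes less clearly placed. Mbp and Mobp correlated with a Pearson r of 0.996 on log2 CPM (Spearman rho 0.952; r of 0.983 without the 2 samples farthest from the median of Mbp). Mag and Cldn11 correlated with an r of 0.991 (rho 0.929; r of 0.982 without the 2 samples farthest from the median of Mag), and Mog and Mag with an r of 0.961 (rho 0.952; r of 0.873 without the 2 farthest for Mog). Across the patterns, r was -0.25 for Mbp and Mag (rho -0.29; r of -0.61 without the 2 farthest for Mbp). These are 4 of 36 pairs, described over 8 samples of 4 groups whose values share library scaling, and they carry no p. Without cortical tamoxifen sample B, over 7 samples, r was 0.989 for Mbp and Mobp, 0.991 for Mag and Cldn11 and -0.29 for Mbp and Mag. Opalin and Cnp were nearer to Mog (r of 0.894 and 0.820) than to Mbp (r of -0.19 and 0.12), and Ugt8a was nearer to Mbp (r of 0.822) than to Mag (r of 0.328). The places of Cnp, Mal and Ugt8a depended on scale and sample: with TMM scaling, described below, r with Mbp was 0.614 for Cnp, 0.912 for Mal and 0.950 for Ugt8a, and for Ugt8a and Mbp on CPM it was only 0.055 once the 2 samples farthest from the median of Mbp were left out. On CPM, Mal had an r of 0.622 with Mbp and 0.462 with Mag. With TMM scaling r was 0.975 for Mag and Cldn11, 0.871 for Mog and Mag and 0.789 for Mog and Cldn11. For Opalin it was then 0.860 with Mog and 0.583 with Mag.

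**Figure D2:**
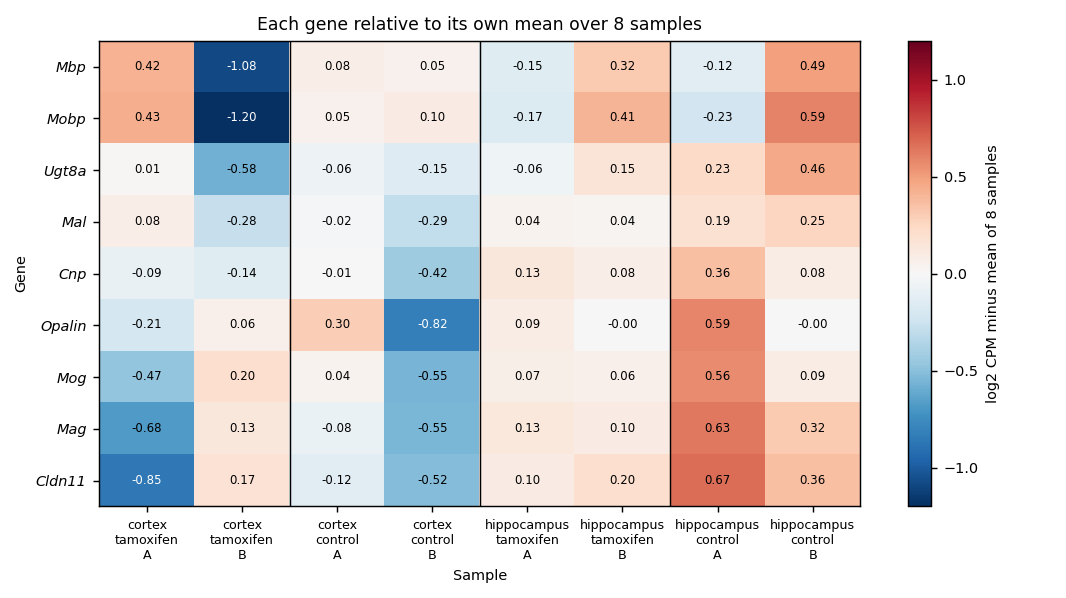
log2 CPM of each gene minus its own mean over the 8 samples (colour and printed value), genes down the page and samples across it. Cortical tamoxifen sample A is at 0.42 for Mbp and -0.68 for Mag, and cortical tamoxifen sample B at -1.08 for Mbp and 0.13 for Mag.

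Ratios between the genes do not depend on how libraries are scaled. The ratio of Mbp to Mag in RPKM was 232 and 47.0 in cortical tamoxifen samples A and B, 122 and 165 in cortical controls, 90.3 and 127 in hippocampal tamoxifen samples and 64.6 and 123 in hippocampal controls, a 4.94-fold range. The ratio of Mag to Cldn11 stayed between 1.08 and 1.32, a 1.22-fold range, and that of Mag to Mog between 2.07 and 2.79. The lowest and the highest ratio of Mbp to Mag therefore belong to the same group, and no treatment or region separated the ratio. For the level of a single gene in bulk samples, fewer oligodendrocytes and less RNA per oligodendrocyte cannot be told apart, and neither was tested. Beside the low Mbp of cortical tamoxifen sample B stood its high neuron markers: 10664 CPM summed over 17 of 17 markers, against 6383 CPM in cortical tamoxifen sample A and 7161 and 7213 CPM in cortical controls. Their part in the result was not tested.

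**Figure D3:**
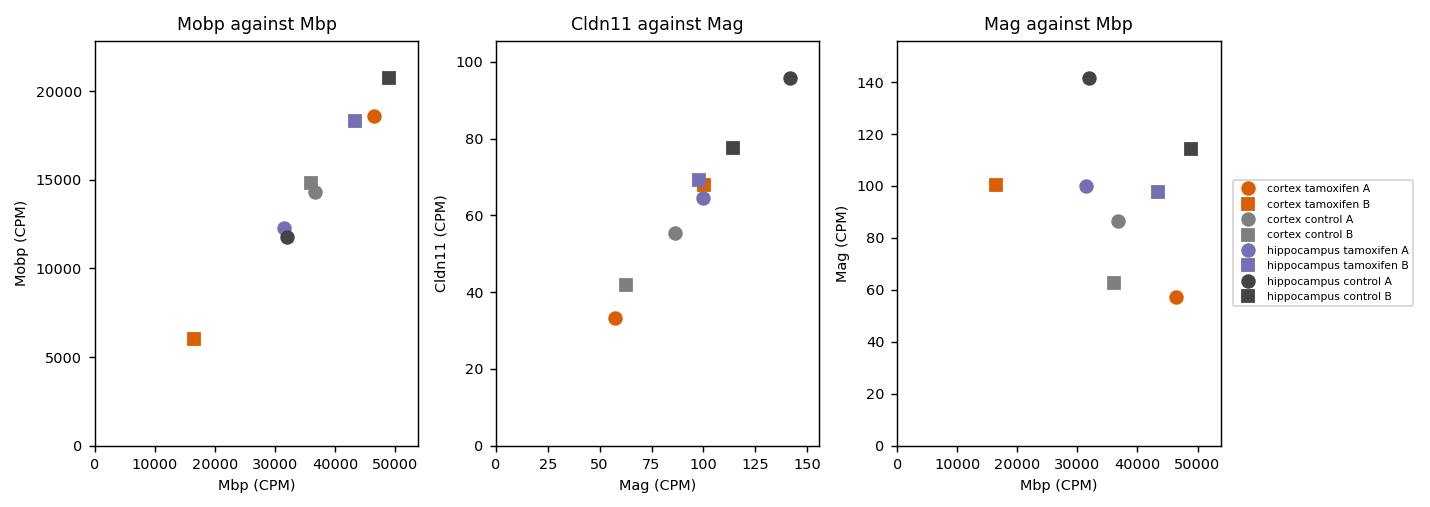
CPM of Mobp against Mbp, Cldn11 against Mag and Mag against Mbp, 1 point per sample, axes from 0. The first 2 panels form lines (r of 0.996 and 0.991 on log2 CPM), and in the third Mag does not follow Mbp (r of -0.25).

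The promoters of the members were read for binding motifs of regulators that act on myelin genes: SOX10, MYRF, and the E-box proteins that partner OLIG2. Of the 9 genes, 8 had a window in the RefSeq promoter table (GRCm38.p6), from 250 bases before to 50 bases after the start. Mobp stands for the Mbp pattern, Mag and Mog for the other, and Opalin held all 3 motifs. They are printed 5′ to 3′ on the gene's strand, with capitals for matches to the SOX motif (ACAAAG or ACAATG) or the MYRF motif (CTGGCAC or CTGGTAC), either strand.
Mobp (chr9:120149492-120149791, plus strand): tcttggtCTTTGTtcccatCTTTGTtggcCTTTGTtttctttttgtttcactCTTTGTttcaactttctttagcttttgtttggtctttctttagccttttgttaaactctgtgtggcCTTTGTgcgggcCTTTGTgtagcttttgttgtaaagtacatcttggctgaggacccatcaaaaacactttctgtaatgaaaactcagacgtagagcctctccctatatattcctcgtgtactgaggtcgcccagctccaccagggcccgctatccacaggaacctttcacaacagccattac
Mag (chr7:30914272-30914571, minus strand): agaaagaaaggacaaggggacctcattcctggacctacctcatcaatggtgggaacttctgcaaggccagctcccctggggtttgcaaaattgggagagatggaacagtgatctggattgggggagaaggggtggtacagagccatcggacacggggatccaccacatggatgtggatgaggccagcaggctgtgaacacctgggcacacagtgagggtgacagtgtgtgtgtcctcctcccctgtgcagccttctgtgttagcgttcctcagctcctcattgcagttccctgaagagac
Mog (chr17:37023349-37023648, minus strand): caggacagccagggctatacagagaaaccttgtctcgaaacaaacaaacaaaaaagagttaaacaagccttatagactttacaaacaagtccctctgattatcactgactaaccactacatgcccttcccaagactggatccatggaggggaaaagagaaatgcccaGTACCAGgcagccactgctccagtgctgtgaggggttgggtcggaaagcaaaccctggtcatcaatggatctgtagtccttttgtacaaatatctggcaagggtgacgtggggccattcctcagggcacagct
Opalin (chr19:41077064-41077363, minus strand): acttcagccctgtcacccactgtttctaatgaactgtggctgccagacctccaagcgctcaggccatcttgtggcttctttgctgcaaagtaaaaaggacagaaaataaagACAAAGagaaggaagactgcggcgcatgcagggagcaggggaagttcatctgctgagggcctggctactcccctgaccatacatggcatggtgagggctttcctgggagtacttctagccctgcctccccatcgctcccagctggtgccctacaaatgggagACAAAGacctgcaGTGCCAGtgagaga

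The Mobp window held 6 SOX matches, each read as CTTTGT on the gene's strand, and was the only one of 32851 promoters in the table with as many. At least 1 SOX match was present in 28.6% of those promoters. Opalin had 2 SOX matches, 1 MYRF match and 1 match to the E-box CAGCTG, which are present in 7.10% and 16.3% of all promoters for the last 2 motifs. Cnp had 1 SOX and 1 MYRF match, Mog had 1 MYRF match, and Mag, Mal, Cldn11 and Ugt8a had none of the 3 motifs. Mag has 3 windows in the table, and the one nearest to the start in the deposited files was used. A match is a description of letters and not a binding site. Whether the motifs sort by pattern cannot be judged, since Mbp had no window and Mobp alone stood for its pattern. Within the other pattern, Mag and Cldn11 had none while Mog had 1 MYRF match.

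Tamoxifen was set against control within cortex first. None of the 9 genes differed past the threshold there, and all 9 had log2 fold changes below 0 on the TMM scale, from -0.07 for Mal to -0.30 for Mobp. TMM scales libraries so that most genes keep their level. On the CPM scale of the levels above, the median gene was 0.163 log2 higher in cortical tamoxifen than in cortical control samples, 0.029 log2 lower in hippocampal tamoxifen than in hippocampal control samples and 0.285 log2 higher in hippocampal than in cortical controls, and the fold changes are relative to that shift. Mbp averaged 31469 ± 21241 CPM in cortical tamoxifen samples and 36366 ± 445 CPM in cortical controls (SD, n = 2 each), for a log2 difference of -0.27 with SE 0.60 (adjusted p = 0.918, edgeR). Mag averaged 78.8 ± 30.4 CPM in cortical tamoxifen samples and 74.5 ± 16.8 CPM in cortical controls (SD, n = 2 each), for a log2 difference of -0.15 with SE 0.19 (adjusted p = 0.868, edgeR). On CPM the mean was higher in cortical tamoxifen than in cortical control samples for 6 of 9 genes, Mag, Cldn11, Mog, Opalin, Cnp and Mal, so the sign of their cortical difference depends on the scale. Mbp, Mobp and Ugt8a were lower on both scales. The SE of Mbp was much larger than that of Mag.

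edgeR called 0 of 18074 genes in cortex, a background of 0%, with 899 genes at an unadjusted p under 0.05 and 8 called by DESeq2. Adjusted p for the 9 genes ran from 0.861 to 0.951, and 0 of 9 had an unadjusted p under 0.05. Their median log2 fold change was -0.15, beside 0.04 over all genes, of which 55.4% were above 0. On CPM the 2 cortical groups overlapped for all 9 genes, against a background of 20.8% of genes that did not overlap and were higher with tamoxifen and 6.29% that were lower. The common sign of the 9 genes changed with single samples left out: 5 of 9 were above 0 without cortical tamoxifen sample B, 3 of 9 without cortical tamoxifen sample A and 6 of 9 without cortical control sample A. With sample B as the only cortical tamoxifen sample, the log2 difference was -1.57 for Mbp and -0.89 for Ugt8a. The spread in that fit was taken from the other groups.

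Markers of other cell types also lay below 0 in cortex with tamoxifen on the TMM scale, with none called: 11 of 11 for astrocytes (median log2 fold change -0.42, 6 at an unadjusted p under 0.05), 8 of 8 for endothelial cells (median -0.39), 7 of 7 for mural cells (median -0.39) and 10 of 11 for microglia (median -0.15). Neuron markers were above 0 for 13 of 17 (median 0.32, none called), and choroid plexus and ependymal markers for 7 of 7 (median 2.40, none called). The latter summed to 4927 and 10.3 CPM in cortical tamoxifen samples A and B and to 923.4 and 7.75 CPM in cortical controls. Astrocyte markers summed to 7038 and 8675 CPM in cortical tamoxifen samples A and B and to 8989 and 9393 CPM in cortical controls, and endothelial markers to 600.1 and 375.5 CPM in cortical tamoxifen samples and 633.8 and 569.9 CPM in cortical controls. Their part in the signs of the 9 genes was not tested.

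In hippocampus, too, none of the 9 genes passed the threshold and all 9 log2 fold changes were below 0. The order differed from that in cortex, with Mag and Cldn11 farthest from 0 and Mbp and Mobp nearest. Mag averaged 98.8 ± 1.43 CPM in hippocampal tamoxifen samples and 127.9 ± 19.6 CPM in hippocampal controls (SD, n = 2 each), for a log2 difference of -0.34 with SE 0.19 (adjusted p = 1, edgeR). Cldn11 averaged 66.9 ± 3.42 CPM in hippocampal tamoxifen samples and 86.7 ± 13.0 CPM in hippocampal controls (SD, n = 2 each), for a log2 difference of -0.34 with SE 0.22 (adjusted p = 1, edgeR). Mbp averaged 37401 ± 8459 CPM in hippocampal tamoxifen samples and 40454 ± 12010 CPM in hippocampal controls (SD, n = 2 each), for a log2 difference of -0.08 with SE 0.60 (adjusted p = 1, edgeR). The other 6 ran from -0.06 for Mobp to -0.26 for Ugt8a.

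On CPM, both hippocampal tamoxifen samples lay below both hippocampal controls for 5 of 9 genes, Mag, Cldn11, Mog, Mal and Ugt8a, and above them for none, against a background of 23.6% of genes lower and 14.6% higher without overlap. With TMM scaling Ugt8a overlapped and 4 of 9 stayed lower, against a background of 18.9%. edgeR called 0 of 18074 genes in hippocampus, a background of 0%, with 653 genes at an unadjusted p under 0.05 and 8 called by DESeq2. The median log2 fold change of the 9 genes was -0.24, beside -0.01 over all genes, of which 48.7% were above 0. Without hippocampal control sample A, without hippocampal control sample B or without hippocampal tamoxifen sample A, 2 of 9 genes were above 0.

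Microglial markers were below 0 for 11 of 11 in hippocampus with tamoxifen (median log2 fold change -0.25), while neuron markers were above 0 for 16 of 17 (median 0.30) and astrocyte markers for 9 of 11 (median 0.31), with none called in any of these lists. Microglial markers summed to 2182 and 1759 CPM in hippocampal tamoxifen samples A and B and to 1945 and 2831 CPM in hippocampal controls, and neuron markers to 8009 and 5701 CPM in hippocampal tamoxifen samples and 6775 and 6482 CPM in hippocampal controls. Choroid plexus and ependymal markers were below 0 for 5 of 7 (median -1.50, none called). They summed to 47.3 and 7925 CPM in hippocampal tamoxifen samples A and B and to 16820 and 7846 CPM in hippocampal controls. Their part in the signs of the 9 genes was not tested.

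The effects in the 2 regions were compared directly. The hippocampal minus the cortical log2 fold change was -0.19 for Mag (SE 0.27, edgeR adjusted p = 0.960), -0.15 for Cldn11 (SE 0.31, edgeR adjusted p = 0.976) and 0.19 for Mbp (SE 0.85, edgeR adjusted p = 0.990). It was above 0 for Mbp, Mobp and Ugt8a and below 0 for the other 6, and for Cnp, at -0.01, the sign depended on the scaling. None of the 9 passed the threshold, and edgeR called 0 of 18074 genes for this difference, a background of 0%, with 981 genes at an unadjusted p under 0.05 and 4 called by DESeq2.

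**Figure D4:**
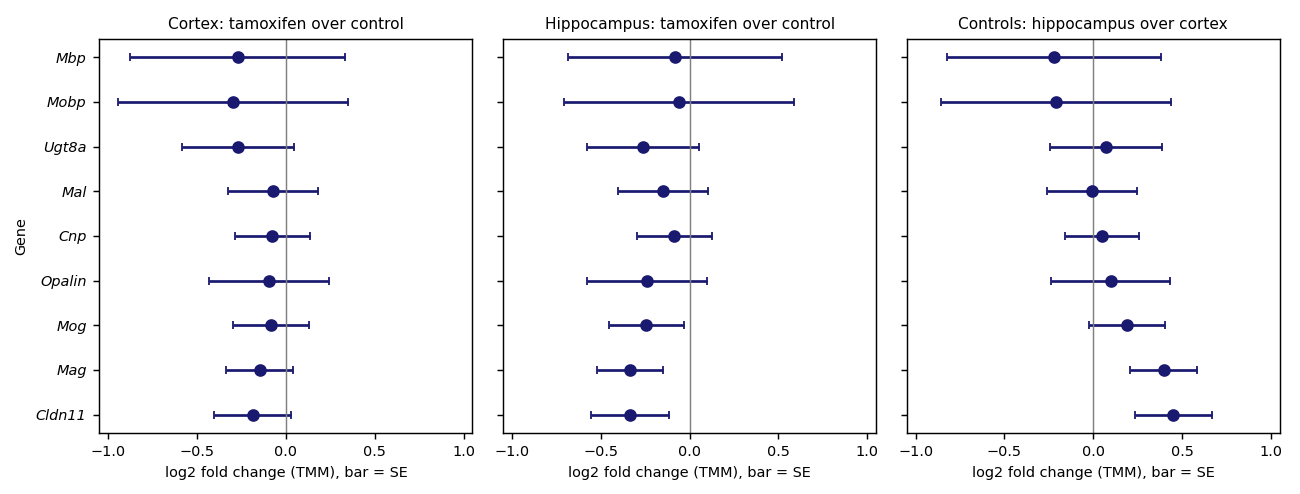
log2 fold changes on the TMM scale with SE bars for the 9 genes, for cortical tamoxifen over control, hippocampal tamoxifen over control and hippocampal over cortical controls. No gene passes the adjusted threshold; Mag and Cldn11 stand at 0.40 and 0.45 between regions, and the SE of Mbp and Mobp is 0.60 to 0.65 in each panel.

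Between regions, hippocampal controls were set against cortical controls. Mag had 127.9 ± 19.6 CPM in hippocampal controls and 74.5 ± 16.8 CPM in cortical controls (SD, n = 2 each), for a log2 difference of 0.40 with SE 0.19 (adjusted p = 0.221, edgeR). Cldn11 had 86.7 ± 13.0 CPM in hippocampal controls and 48.6 ± 9.47 CPM in cortical controls (SD, n = 2 each), for a log2 difference of 0.45 with SE 0.22 (adjusted p = 0.229, edgeR). Mog followed at 0.19 (SE 0.21, edgeR adjusted p = 0.602), and Mbp and Mobp stood at -0.22 and -0.21 with SEs of 0.60 and 0.65. On CPM all 9 had the higher mean in hippocampal controls, Mbp with 40454 CPM in hippocampal and 36366 CPM in cortical controls and Mobp with 16283 CPM in hippocampal and 14553 CPM in cortical controls, so the sign of Mbp, Mobp and Mal between regions depends on the scale. On the TMM scale the other 4 ran from -0.01 for Mal to 0.10 for Opalin, and none of the 9 passed the threshold.

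edgeR called 1118 of 18074 genes between regions, a background of 6.19%, against 0 of the 9. When the 16 libraries were fitted as separate samples, Mag (log2 fold change 0.39, edgeR adjusted p = 0.0138) and Cldn11 (0.45, edgeR adjusted p = 0.0168) passed, among 6982 of 16746 genes called. Neighbouring libraries are near repeats, so those p-values are too small. Both genes also passed where limma voom kept 16 libraries with an estimated correlation within pairs, at adjusted p = 0.0353 for Mag and adjusted p = 0.0317 for Cldn11. That limma voom fit called 3426 of 16746 genes, and it too rests on near repeats, with a single correlation for all genes. No fit on the summed samples called Mag or Cldn11 between regions. These fits included limma voom with quality weights, which called 4812 of 18074 genes. On CPM, 6 of 9 genes were higher in both hippocampal controls than in both cortical controls, and none was lower, against a background of 62.1% higher and 13% lower without overlap. With TMM scaling only Mag and Cldn11 did not overlap, against a background of 34.6% higher. Microglial and meningeal markers were also higher in hippocampal controls, with 6 of 11 and 2 of 6 called, neuron markers were below 0 for 16 of 17 (median log2 fold change -0.91), with 4 called lower, and the summed level of 7 choroid plexus and ependymal markers was 16820 and 7846 CPM in hippocampal controls against 923.4 and 7.75 CPM in cortical controls. Their part in the differences between regions was not tested.

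Other genes of oligodendrocytes, from a list of 37 of which 36 were tested were compared with both patterns. On log2 CPM, 10 of 36 had an r over 0.9 with Mbp, beside 0.907% of all genes tested, and 5 of 36 had one with Mag, beside 4.20%, while 21 of 36 had neither. Among the 10 were Qdpr, Adamts4, Anln, Tmem88b, Ermn, Tspan2, Ndrg1, Evi2a and Prr5l. The 5 were Gpr37, Pllp, Cntn2, Trf and Jam3. They are named for their correlation, after their values were seen. With TMM scaling the counts were 12 (2.33% of all genes) and 1 (0.238%), the last being Gpr37. Without cortical tamoxifen sample B, on CPM, they were 4 (0.448%) and 7 (11.2%). The counts for Mbp and for Mag thus both depend on scale and on that sample. Markers of other cell types were set beside them: 8 of 8 endothelial markers had a higher r with Mbp than with Mag (median r with Mbp 0.80), 1 of 8 having an r over 0.9 with Mbp on CPM and 5 of 8 with TMM scaling. The median r with Mag on CPM was 0.78 for precursor, 0.76 for meningeal fibroblast and 0.72 for microglial markers. Gpr37, a receptor of oligodendrocytes, had 19.5 and 37.8 CPM in cortical tamoxifen samples A and B, 34.6 and 23.7 CPM in cortical controls, 48.7 and 43.8 CPM in hippocampal tamoxifen samples and 67.5 and 47.5 CPM in hippocampal controls.

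**Figure D5:**
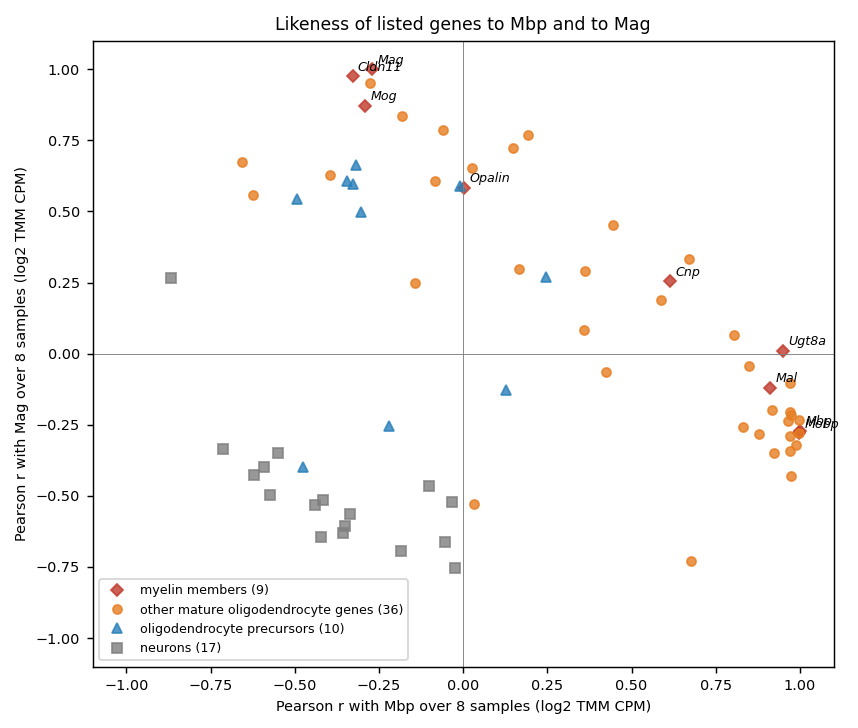
Pearson r over 8 samples with Mbp (horizontal) and with Mag (vertical) on log2 TMM-scaled CPM, 1 point per listed gene, for the 9 myelin genes, 36 other mature oligodendrocyte genes, 10 precursor genes and 17 neuron markers. Mobp, Ugt8a and Mal lie near Mbp at the right (r of 0.997, 0.950 and 0.912) and Cldn11 and Mog near Mag at the top (r of 0.975 and 0.871 with Mag).

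The genes whose pattern was most like the mean of the 9, among 10046 genes of at least 5 CPM, were Myrf (r of 0.987), Sned1 (0.985), Gca (0.980), Spg20 (0.980), Litaf (0.980), Rfk (0.969), Tmem123 (0.964), Fcho2 (0.961), Grb14 (0.961) and Rbpms2 (0.961), over 8 samples on log2 CPM. With TMM scaling, 4 of these 10 genes were again among the 10, Myrf, Gca, Spg20 and Litaf. Myrf, the transcription factor that switches on myelin genes in maturing oligodendrocytes, had 54.3 and 48.8 CPM in cortical tamoxifen samples A and B, 57.6 and 47.2 CPM in cortical controls, 59.9 and 65.7 CPM in hippocampal tamoxifen samples and 78.5 and 72.0 CPM in hippocampal controls. That mean blends both patterns, and Myrf itself had an r of 0.401 with Mbp and 0.760 with Mag on CPM, but of 0.780 with Mbp and 0.329 with Mag with TMM scaling. Likeness to Mbp alone and to Mag alone was added after seeing the data. The genes most like Mbp alone were Plekhb1 (r of 0.998), Oxsr1 (0.997), Bcas1 (0.995), Adamts4 (0.995), Kif1c (0.995), Nek7 (0.992) and Qdpr (0.991). Bcas1 marks oligodendrocytes that are forming myelin, and Kif1c is a kinesin motor. The genes most like Mag alone were B3galt5 (r of 0.991), Dscr3 (0.984), Gpr37 (0.980), Erbb3 (0.979) and Tceal1 (0.977), of which Erbb3 is a receptor for neuregulins.

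Lists of oligodendrocyte genes with other roles were read beside the 9. In the list of 37, none was called in cortex or hippocampus, with 29 of 36 below 0 in cortex (median -0.18) and 28 of 36 below 0 in hippocampus (median -0.12). Among its most abundant genes were Enpp2, Qdpr, Tppp and Car2. Enpp2, which the choroid plexus also makes, ranged from 60.1 to 5675 CPM and had an r of 0.961 with Ttr, the transport protein of the choroid plexus, so its level here followed a gene of that tissue. Among 12 genes of galactolipid and very long chain lipid synthesis, which supply myelin's membrane, 11 were below 0 in hippocampus with tamoxifen (median -0.16, 0 called) and 11 were above 0 in hippocampal against cortical controls (median 0.47). Between regions 1 of the 12 was called, beside 6.19% of all genes tested. It was Degs1, with 76.8 and 54.3 CPM in hippocampal controls and 26.8 and 23.6 CPM in cortical controls. Its log2 difference was 0.99 with SE 0.19 (adjusted p = 0.0386, edgeR). Fa2h, which makes the hydroxylated fatty acids of myelin lipids, followed Mag (r of 0.955) and not Mbp (r of -0.43).

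Of the 13 transcription regulators, 9 were below 0 in cortex and 9 above 0 in hippocampus with tamoxifen, and none was called. Sox10, which acts on most myelin genes, had 32.2 and 53.8 CPM in cortical tamoxifen samples A and B, 41.7 and 31.5 CPM in cortical controls, 69.4 and 56.4 CPM in hippocampal tamoxifen samples and 68.2 and 56.1 CPM in hippocampal controls, with an r of 0.917 with Mag and -0.27 with Mbp. Among 5 gap junction and channel genes, the connexin Gjc3 had an r of 0.942 with Mbp. Of 7 listed genes of the peripheral myelin made by Schwann cells, 5 were tested and none was called in any comparison. Drp2 averaged 33.1 CPM, Pmp22 23.5 CPM and Egr2 3.81 CPM over the 8 samples, and Pmp2 had 0 counts in every sample, which allows up to 3 counts per sample.

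Precursor genes had the other sign in hippocampus. All 10 tested of 11 listed had a log2 fold change above 0 with tamoxifen (median 0.33, 0 called), where all 9 mature genes were below 0. Their summed level was 798.6 and 599.1 CPM in hippocampal tamoxifen samples A and B and 593.0 and 548.4 CPM in hippocampal controls. Neuron markers (16 of 17) and astrocyte markers (9 of 11) were above 0 there as well. Pdgfra, the growth factor receptor of precursors, had 124.6 and 91.9 CPM in hippocampal tamoxifen samples A and B and 99.1 and 80.3 CPM in hippocampal controls, for a log2 difference of 0.30 with SE 0.24 (adjusted p = 1, edgeR). In cortex 8 of 10 precursor genes were below 0 (median -0.07). Between regions 1 of 10 precursor genes was called, beside 6.19% of all genes tested. It was Cspg4, the NG2 proteoglycan of precursors, with 56.6 and 52.8 CPM in hippocampal controls and 25.5 and 21.7 CPM in cortical controls. Its log2 difference was 0.83 with SE 0.15 (adjusted p = 0.0330, edgeR). No test of the precursor list against the 9 genes was made.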

How the data were processed

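The submitters' processing notes name STAR, HTSeq and the mm10 build for these RNA-seq libraries. They give no tool version, annotation release or strand setting. The files deposited by the authors list whole-number, unscaled counts for every gene. The authors' RPKM column was recomputed for 100% of values from counts, exon length and the sum of all reads, assigned or not. It was used only to compare genes with each other. Reads given to no gene were left out: those aligned to several places were 27.5 to 35.4%, those in no feature 3.64 to 7.93% and ambiguous ones 1.38 to 1.86% of all counts.

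Counts of neighbouring libraries were added, because their differences were 2.58 to 2.79 times the Poisson variance (genes of 20 to 200 counts), against 3.59 to 16.8 times for the other pairs. That grouping rests on values of these data, not on a label. Genes were filtered with filterByExpr, scaled with TMM and fitted with 1 mean per group in edgeR 4.0.16 (R 4.3.3), by the robust quasi-likelihood test with Benjamini-Hochberg adjustment over 18074 genes and a threshold of 0.05. The SE was taken as the absolute log2 fold change over the root of the F statistic. An exact permutation test of 2 against 2 samples cannot go below 0.333, so none was used. Correlations used log2(CPM + 0.5). DESeq2 1.42.0 and limma 3.58.1 gave alternatives, with other scalings, 16 libraries, a replicate block and samples left out. The fit was checked on simulated counts.

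The 9 genes and the lists of other genes were chosen with earlier results of these data known, so no p-value was adjusted over them alone. All 9 are named. Of each list, the examples are at most 5 genes with the largest mean count. Genes of like pattern are the 10 of highest r with the mean of the 9 genes among those of at least 5 CPM, without predicted, Rik, mitochondrial and pseudogene entries. Other genes named singly were chosen after their values were seen. Results for some listed genes are not reported here.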

Additional observations from a re-analysis of the deposited data

How the results depend on the processing

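Between them the alternatives covered 4 scalings, 3 tools, an unfiltered table, both countings of the libraries, a block and each sample left out. No member passed the threshold with tamoxifen in any of them that kept both samples of each group. Without cortical tamoxifen sample A, the log2 difference in cortex was -1.57 for Mbp and -0.89 for Ugt8a. That fit left a single cortical tamoxifen sample, with its spread taken from the other groups, so only the effect sizes are given. With all 8 samples, counts of called genes in cortex were 1 without a filter, 8 with DESeq2, 562 with 16 libraries and 16 with limma voom on 16 libraries with correlated pairs. In hippocampus they were 8, 318 and 9 with DESeq2, 16 libraries and correlated pairs, and for the difference of the effects 4, 867 and 106. Between regions they were 3207 with DESeq2, 4812 with limma voom and quality weights, 6982 with 16 libraries and 3426 with correlated pairs, against 1118. The cause was not tested. Signs turned for values near 0: for Cnp in the difference of the effects (0.0092 with RLE, 0.072 with upper quartile scaling, 0.022 with TMM without members and mitochondrial genes, 0.0093 with DESeq2 and 0.018 with correlated pairs), for Mal there (0.0042 with upper quartile scaling), and between regions for Cnp (-0.0062 with upper quartile scaling) and Mal (0.0066 without a filter). The fold range over samples was 1.59 for Mog, 1.79 for Mag, 1.44 for Cnp, 1.77 for Mal and 2.08 for Cldn11 on TMM-scaled CPM, and 1.63 for Mal in RPKM.

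Samples of 2 groups with the same letter share only a letter: their deviations over all genes correlated between -0.50 and 0.35 over the 6 pairs of groups. With the letter as a replicate block, 72 genes were called between regions, Mal turned to 0.0042 there and Cnp to 0.0071 in the difference of the effects, and no member's call changed. With the letters of the hippocampal controls crossed, an alternative chosen after seeing the data, 0 genes were called in hippocampus.

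With each sample left out in turn, called genes numbered 0 to 2014 in cortex (2014 without cortical tamoxifen sample A, 1 without sample B) and 0 to 3915 between regions, where 3915 and 3873 were called without cortical tamoxifen sample A or B, 404 and 433 without hippocampal tamoxifen sample A or B, 2 without cortical control sample A, and 0 without cortical control sample B or either hippocampal control sample. In cortex the log2 fold changes that turned sign ran from -1.57 to 0.40 for Mbp, -1.70 to 0.40 for Mobp, -0.34 to 0.076 for Mag, -0.50 to 0.065 for Cldn11, -0.33 to 0.21 for Mog, -0.54 to 0.54 for Opalin, -0.36 to 0.16 for Cnp, -0.55 to 0.28 for Mal and -0.89 to 0.16 for Ugt8a, and the median of the 9 genes from -0.36 to 0.16. In hippocampus the log2 fold changes that turned sign ran from -0.39 to 0.30 for Mbp, -0.44 to 0.46 for Mobp, -0.48 to 0.039 for Opalin and -0.18 to 0.018 for Cnp, and the median of the 9 genes from -0.36 to -0.13. For the difference of the 2 effects the log2 fold changes that turned sign ran from -0.48 to 1.48 for Mbp, -0.46 to 1.64 for Mobp, -0.41 to 0.0077 for Mag, -0.40 to 0.16 for Cldn11, -0.46 to 0.091 for Mog, -0.78 to 0.30 for Opalin, -0.24 to 0.27 for Cnp, -0.43 to 0.40 for Mal and -0.42 to 0.63 for Ugt8a, and the median of the 9 genes from -0.24 to 0.27. Between regions the log2 fold changes that turned sign ran from -0.61 to 0.084 for Mbp, -0.73 to 0.17 for Mobp, -0.057 to 0.49 for Mog, -0.34 to 0.74 for Opalin, -0.12 to 0.24 for Cnp, -0.12 to 0.11 for Mal and -0.088 to 0.22 for Ugt8a, and the median of the 9 genes from -0.12 to 0.24. Counts per sample were at least 615 for each of the 9 genes.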
